A study of Mus musculus with 9 samples.

Results

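The PDGF receptors, the TGF-beta ligands with their receptors, and the secreted Wnt antagonists Sfrp1 and Sfrp2 were followed in the stroma of CR2-TAg prostates. Genes were taken by the symbol that the platform's annotation gave to each spotted cDNA clone. Of 9 genes sought, 8 had at least 1 clone, with 17 clones among the 17664 rows of the arrays and 8 genes among the 8106 tested. Sfrp2 had no row under its symbol. Two-color arrays were hybridized with RNA from laser-microdissected stroma of 6 mice with invasive cancer at 24 weeks of age (invasive 1 to 6) and of 3 mice with prostatic intraepithelial neoplasia at 10 weeks of age (PIN 2, 3 and 4), with 1 mouse per array. All mice carried the CR2-TAg transgene, in which regulatory elements of cryptdin-2 drive SV40 T antigen in prostatic neuroendocrine cells, so no group had normal stroma, and stage cannot be told apart from age. Each value is the log2 ratio of a sample over a common pool of 4 PIN samples, so a difference of 1 is a doubling of the ratio, and values of different genes do not rank their levels.

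PDGF receptors are tyrosine kinases of mesenchymal cells. Pdgfra is typical of fibroblasts and Pdgfrb of pericytes and activated fibroblasts, and both drive growth and migration once a PDGF dimer binds. The TGF-beta ligands are secreted in a latent form, and once freed they bind Tgfbr2, which recruits and phosphorylates Tgfbr1, and SMAD proteins then carry the signal to genes of matrix and wound repair. Secreted frizzled-related proteins such as Sfrp1 bind Wnt ligands outside the cell and are best known as antagonists of Wnt signaling. In a tumor these pathways connect epithelium with the fibroblasts, pericytes and immune cells of the stroma.

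Some arrays stood apart. PIN 4 correlated with PIN 2 and PIN 3 at r = 0.18 and 0.19 over all clones, against 0.67 between PIN 2 and PIN 3, and invasive 3 had the lowest invasive median of the macrophage, fibroblast and endothelial marker lists. The stroma was a mixed tissue, and the ratios of several cell type marker lists differed between stages. All 5 measured macrophage markers rose, with per-array medians of 1.06 to 3.01 in invasive stroma and -0.46 to 0.43 in PIN stroma. Of 8 fibroblast markers 2 rose (medians 0.18 to 1.30 in invasive stroma and -0.45 to 0.32 in PIN stroma), as did 2 of 7 endothelial markers (0.34 to 1.64 and -0.03 to 0.10) and 1 of 5 neuroendocrine markers (0.40 to 2.74 and -0.17 to 0.66). The 2 fibroblast markers that rose were Col1a2 and Col3a1, which are also counted among the TGF-beta response genes below. Smooth muscle markers ran the other way, with 3 of 5 lower (-3.91 to -0.25 in invasive stroma and -0.58 to 0.40 in PIN stroma), and the 3 pericyte markers had a median difference of -0.19. The 6 epithelial markers had per-array medians of -1.47 to -0.33 in invasive stroma, against -1.21, -1.66 and 0.74 in PIN 2, 3 and 4, so PIN 4 stood apart there too. Their part in the results that follow was not tested, and in such tissue more cells of a type and more RNA per cell cannot be told apart.

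Sfrp1 and Pdgfrb rose in invasive stroma and the other 6 genes did not pass. A gene or clone passed at an adjusted p under 0.15 (limma, Benjamini-Hochberg adjustment over all genes or all clones), the false discovery rate that the study used. Averaged over its clones, Sfrp1 was 2.73-fold higher (difference in log2 ratio 1.45, SE 0.26, adjusted p = 0.027, limma) and Pdgfrb 2.21-fold higher (1.14, SE 0.26, adjusted p = 0.0602, limma). In both genes the lowest invasive array was above the highest PIN array. Thus 2 of 8 genes passed, where 5.64% of all genes tested did (3.75% higher and 1.89% lower), and 3 of 17 clones passed, all 3 higher, where 2.16% of all clones passed and 1.52% passed with a higher ratio. At an adjusted p under 0.05, 1 of 8 genes passed (0.938% of all genes) and 0 of 17 clones (0.459% of all clones), although 9 of the clones had an unadjusted p under 0.05. Groups did not overlap in 2 of the 8 genes, where 7.85% of all genes did not, and in 3 of the 17 clones, where 6.26% of all clones did not. The median difference over all genes was 0.02.

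**Figure D1:**
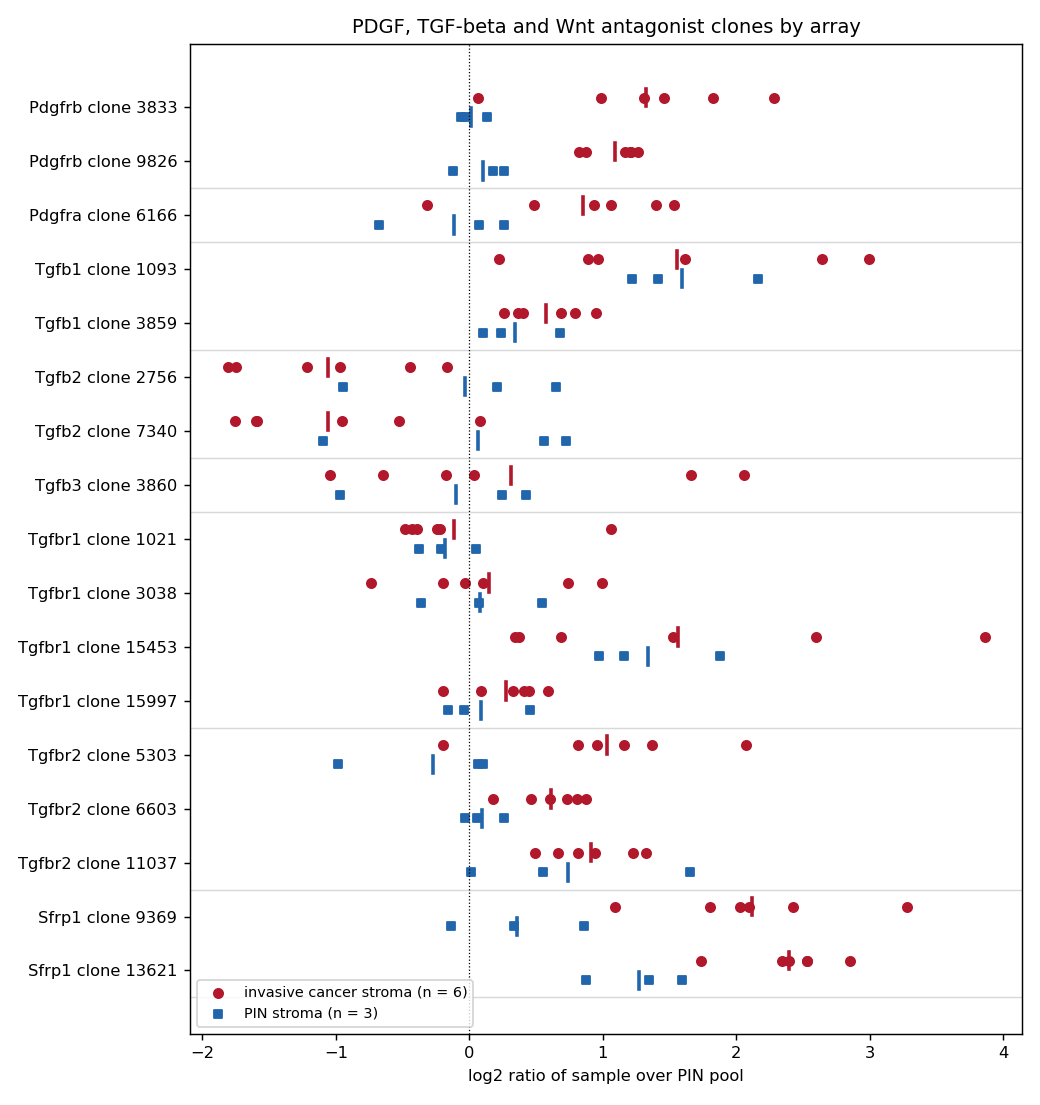
Log2 ratio over the PIN pool (horizontal axis) of each of the 17 clones (rows) on each array, with the 6 invasive arrays as circles above the 3 PIN arrays as squares; short vertical bars mark the group means and the dotted line marks 0. The circles lie wholly to the right of the squares in Pdgfrb clone 9826 and both Sfrp1 clones, and mostly to the left of 0 in both Tgfb2 clones.

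Of the PDGF receptors, Pdgfrb was measured by 2 clones. Clone 9826 (clones are named by their row on the array) gave log2 ratios of 1.26, 1.16, 0.88, 1.21, 1.20 and 0.82 in invasive 1 to 6, against 0.26, -0.12 and 0.18 in PIN 2, 3 and 4. The lowest invasive value was thus far above the highest PIN value, and the 6 invasive arrays were close to each other (SD 0.19). The difference was 0.98 (SE 0.21, adjusted p = 0.0697, limma). Clone 3833 spread much more in invasive stroma, with a lowest value of 0.06, a median of 1.38 and a highest of 2.28, and gave -0.03, -0.06 and 0.13 in PIN 2, 3 and 4. Its lowest value, that of invasive 3, fell among the PIN values, and its larger difference of 1.31 (SE 0.39) did not pass (adjusted p = 0.176, limma). The clones correlated over the arrays (Pearson r = 0.85 over 9 arrays and 0.81 over the 6 invasive ones), though the lowest invasive array of clone 9826 was invasive 6. The call for the gene was lost without PIN 2 (adjusted p = 0.221, limma) or PIN 3 (0.226) and with an equal-variance test (0.203), while its difference lay between 1.03 and 1.29 whichever array was left out.

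Pdgfra, on 1 clone, had log2 ratios of 0.48, 1.54, -0.32, 1.06, 0.93 and 1.40 in invasive 1 to 6, against 0.26, 0.07 and -0.68 in PIN 2, 3 and 4. Of the invasive arrays 5 were above all PIN arrays, and invasive 3 was below 2 of them. The difference of 0.96 (SE 0.37, 95% interval 0.15 to 1.78) did not pass (adjusted p = 0.238, limma), and without invasive 3 it was 1.20 and passed (adjusted p = 0.0376, limma). That Pdgfrb passed and Pdgfra did not does not show that they differ. The difference between them, taken within each array, was 0.18 greater in invasive stroma (exact permutation test over 84 splits of the arrays, two-sided, p = 0.714 before and after adjustment over 5 pairs of genes).

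The 3 TGF-beta ligands showed different patterns, and none passed. Tgfb2 was the only gene of the 8 with a clearly negative difference, and its 2 clones followed each other closely (r = 0.95 over 9 arrays, 0.88 over the invasive ones). Clone 2756 gave -0.44, -1.75, -1.81, -1.22, -0.17 and -0.97 in invasive 1 to 6, against 0.21, 0.65 and -0.95 in PIN 2, 3 and 4. Clone 7340 gave -0.52, -1.76, -1.59, -0.95, 0.08 and -1.60 in invasive 1 to 6, against 0.56, 0.72 and -1.10 in the PIN arrays. In both clones PIN 2 and PIN 3 were above every invasive array, and PIN 4 lay within the invasive range. The mean of the clones differed by -1.07 (SE 0.43, 95% interval -2.02 to -0.13, adjusted p = 0.259, limma), and without PIN 4, the PIN array highest in epithelial markers, it differed by -1.60 and passed (adjusted p = 0.107, limma).

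Tgfb3, on 1 clone, spread widely within invasive stroma. Its log2 ratios were -0.17, -1.04, -0.65, 2.06, 1.66 and 0.03 in invasive 1 to 6, against 0.24, 0.43 and -0.97 in PIN 2, 3 and 4. Only invasive 4 and invasive 5 were above the PIN arrays, and the difference of 0.41 had an SE of 0.63 (adjusted p = 0.832, limma). The mean Tgfb2 ratios of the clones were least negative in invasive 1, 4 and 5. Taken within each array, Tgfb3 minus Tgfb2 was 1.37 ± 0.99 in invasive stroma (SD, n = 6) and -0.12 ± 0.16 in PIN stroma (SD, n = 3), with no overlap between the groups (exact permutation test, p = 0.0238, the smallest that 84 splits allow, adjusted p = 0.119 over 5 pairs). Tgfb2 minus Tgfb1 was -2.12 ± 0.80 in invasive and -0.95 ± 0.72 in PIN stroma (SD, n = 6 and 3, exact permutation p = 0.0476, adjusted p = 0.119). Both passed the threshold of 0.15. Without any 1 array Tgfb3 minus Tgfb2 stayed between 1.14 and 1.70, with the groups apart. The exact permutation p was then the smallest that the remaining splits allow (0.0357 or 0.0714). Its adjusted p still reached 0.238, and the call was lost in 7 of 9 runs. That loss followed from the fewer splits and the adjustment over 5 pairs, as the groups stayed apart. Tgfb2 minus Tgfb1 lay between -1.57 and -0.87, with an adjusted p of 0.179 or 0.238 in 7 of 9 runs. Tgfb3 minus Tgfb1 was 0.32 greater in invasive stroma (exact permutation p = 0.714, adjusted p = 0.714).

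For Tgfb1 the clones disagreed. Clone 1093 gave 2.65, 0.97, 2.99, 1.62, 0.89 and 0.22 in invasive 1 to 6, against 2.16, 1.41 and 1.22 in PIN 2, 3 and 4. Clone 3859 gave 0.26, 0.40, 0.36, 0.69, 0.95 and 0.79 in invasive 1 to 6, against 0.11, 0.68 and 0.23 in the PIN arrays. Where one was high the other was low (r = -0.61 over 9 arrays and -0.73 over the invasive ones), whereas over the 1862 genes with 2 clones the median r was 0.26, with quartiles of -0.09 and 0.62. Neither clone differed by more than its error (-0.04, SE 0.54, and 0.24, SE 0.24), and the mean difference of 0.10 (SE 0.26, adjusted p = 0.911, limma) turned to -0.18 with scaled and -0.38 with quantile-normalized arrays. The 95% interval of -0.48 to 0.67 leaves room for a moderate change in either direction.

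Of the TGF-beta receptors, Tgfbr2, the ligand-binding type II receptor, had 3 clones with positive differences of unequal size, and they did not follow each other. Clones 5303 and 6603 had r = 0.60 over 9 arrays (0.34 over the invasive ones), clones 6603 and 11037 r = 0.11 (0.26), and clones 5303 and 11037 r = 0.08 (-0.79). Clone 5303 gave 0.96, 2.08, -0.20, 0.81, 1.16 and 1.37 in invasive 1 to 6, against 0.10, 0.07 and -0.98 in PIN 2, 3 and 4, a difference of 1.30 (SE 0.42, adjusted p = 0.21, limma). Invasive 3 again fell among the PIN arrays and the other 5 were above them. Clone 6603 had a lowest, median and highest ratio of 0.18, 0.67 and 0.87 in invasive stroma, against 0.05, -0.03 and 0.26 in PIN 2, 3 and 4 (difference 0.51, SE 0.22, adjusted p = 0.376, limma). Clone 11037, with 0.49, 0.88 and 1.33 in invasive stroma and 1.65, 0.55 and 0.01 in PIN 2, 3 and 4, differed by 0.17 (SE 0.33), a value that turned to -0.07 with scaled and -0.11 with quantile-normalized arrays. Their mean differed by 0.66 (SE 0.23, 95% interval 0.17 to 1.15, adjusted p = 0.175, limma), and passed without invasive 3 (0.73, adjusted p = 0.0992, limma).

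Tgfbr1, the type I receptor that phosphorylates SMADs, had 4 clones whose differences lay between 0.06 and 0.23, with adjusted p from 0.857 to 0.983 (limma), and at least 1 scaling turned the sign of clones 3038 and 15453. Clone 15453 stood apart from the other 3, with 2.60, 0.34, 3.86, 1.52, 0.69 and 0.37 in invasive 1 to 6, against 1.88, 1.16 and 0.97 in the PIN arrays. The mean of the 4 clones differed by 0.13 (SE 0.23, 95% interval -0.36 to 0.63, adjusted p = 0.849, limma), and by -0.08 with quantile-normalized arrays. Tgfbr2 minus Tgfbr1 was 0.38 ± 0.51 in invasive and -0.15 ± 0.23 in PIN stroma (SD, n = 6 and 3, exact permutation p = 0.119, adjusted p = 0.198), so the receptors were not shown to differ.

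**Figure D2:**
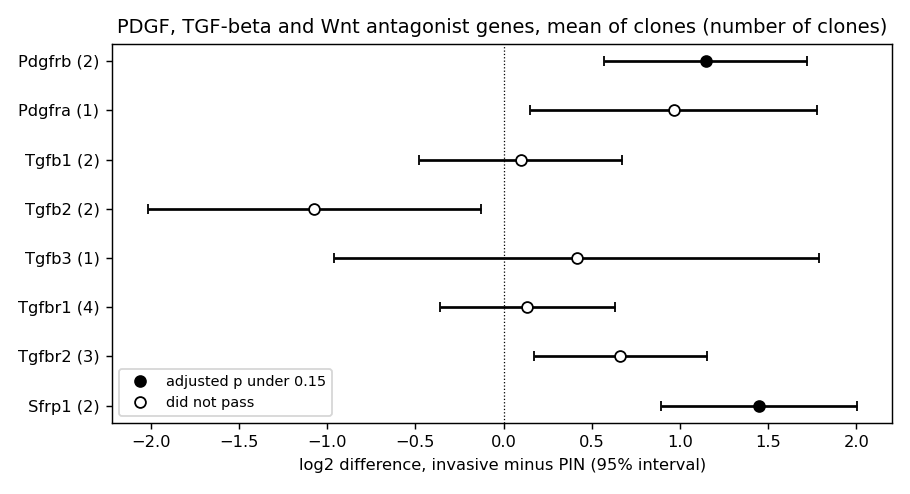
Difference in log2 ratio, invasive minus PIN (horizontal axis), of each gene averaged over its clones, with the 95% interval from limma; the number of clones is in parentheses and filled points passed. Sfrp1 (1.45) and Pdgfrb (1.14) passed, and the intervals of Tgfb1, Tgfb3 and Tgfbr1 span 0.

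Sfrp1 had the largest difference of the 8 genes, and both of its clones passed. Clone 9369 gave 1.80, 2.09, 1.09, 2.02, 2.43 and 3.28 in invasive 1 to 6, against 0.33, 0.86 and -0.13 in PIN 2, 3 and 4 (difference 1.77, SE 0.40, adjusted p = 0.0866, limma). Clone 13621 gave 2.39, 1.74, 2.85, 2.35, 2.53 and 2.53 in invasive 1 to 6, against 1.60, 1.35 and 0.87 in the PIN arrays (1.13, SE 0.27, adjusted p = 0.0946, limma). In each clone the groups did not overlap. Within invasive stroma the clones did not follow each other (r = -0.19 over 6 arrays, 0.69 over all 9), with clone 9369 lowest and clone 13621 highest in invasive 3. Each clone lost its call in 6 of 9 runs without 1 array (adjusted p up to 0.315 for clone 9369 and 0.295 for clone 13621, limma). Averaged over clones, Sfrp1 ranked 30 by p among the 8106 genes and passed without any 1 array (adjusted p 0.00944 to 0.116, limma). It did not pass with quantile-normalized arrays (1.00, adjusted p = 0.28, limma) or with the unequal-variance test (adjusted p = 0.174). With the equal-variance test Sfrp1 passed, just under the threshold (adjusted p = 0.149).

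In 4 of the 17 clones the PIN samples lay further above the pool than their own share in it can give. If a pool of 4 holds equal shares, 3 of its samples cannot average more than 0.42 in log2 ratio by abundance alone. The PIN mean was 1.60 in Tgfb1 clone 1093, 1.34 in Tgfbr1 clone 15453, 1.27 in Sfrp1 clone 13621 and 0.74 in Tgfbr2 clone 11037. Over all clones with a value on each array, 3.71% (637 of 17163) were above this bound. Any offset of a clone that all arrays share leaves the invasive minus PIN difference of the deposited ratios as it is, but not that of rescaled arrays. Sfrp1 clone 13621 differed by 0.65 with scaled arrays (adjusted p = 0.384, limma) and by 0.52 with quantile-normalized arrays (0.559), and passed in neither. Sfrp1 clone 9369, below the bound, differed by 1.46 and passed with scaled arrays (0.122). With quantile-normalized arrays it differed by 1.48 and did not pass (0.254).

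Of the clones above the bound, Tgfb1 clone 1093 and Tgfbr1 clone 15453 had nearly 1 profile (r = 0.95 over 9 arrays, 0.96 over the invasive ones), though they carry different genes. That profile was a common one. A correlation of at least 0.9 with Tgfb1 clone 1093 was found for 680 other clones and with Tgfbr1 clone 15453 for 570, whereas each of the other 15 clones had between 3 and 115 such clones. Of the 251 clones with all PIN arrays above 0.8, 215 followed Tgfb1 clone 1093. Among the pathway genes described further on, chosen here after their values were seen, 6 of 16 Wnt ligands (Wnt2b, Wnt3a, Wnt7a, Wnt7b, Wnt8b and Wnt10a) had a correlation of at least 0.9 with it, as had the receptor Fzd1, the antagonist Wif1, 4 of 18 Wnt relays (Apc, Dvl1, Dvl2 and Porcn), Smad6 and Furin, where 0.853% of all genes had. The single clone of Wnt2b gave values close to those of Tgfb1 clone 1093, with 2.49, 0.93, 3.05, 1.64, 0.74 and 0.74 in invasive 1 to 6, against 2.10, 1.09 and 1.45 in the PIN arrays. The PIN mean was above the bound of the pool in 13 of 16 Wnt ligands, against 2.23% of all genes. What these clones share was not tested, and the Tgfb1 and Tgfbr1 means and the differences of these Wnt genes contain this profile.

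**Figure D3:**
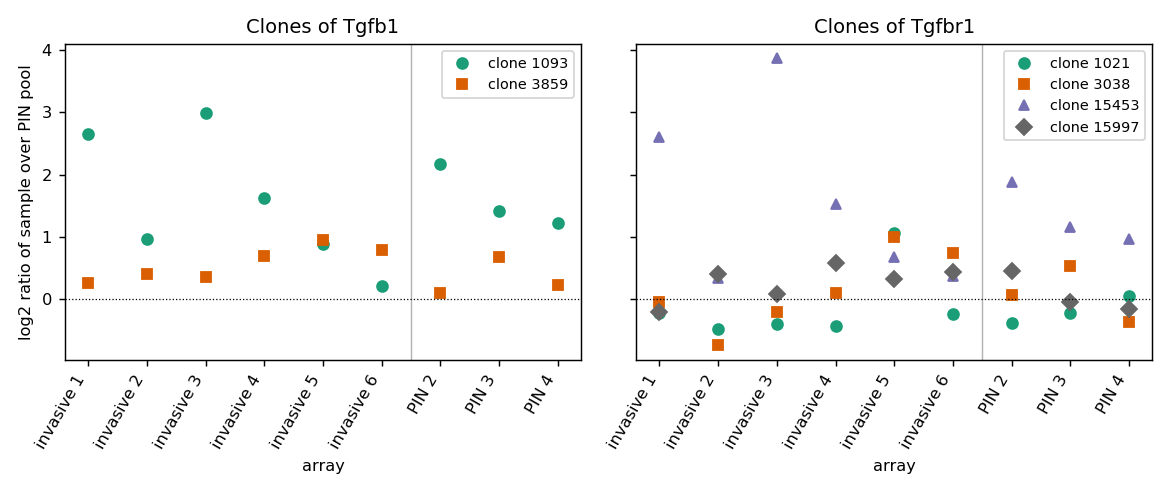
Log2 ratio over the PIN pool (vertical axis) of the 2 clones of Tgfb1 (left) and the 4 clones of Tgfbr1 (right) on the 9 arrays (horizontal axis, invasive 1 to 6, then PIN 2 to 4), with 1 symbol per clone. Tgfb1 clone 1093 and Tgfbr1 clone 15453 are both highest in invasive 3 (2.99 and 3.86), where the other clone of Tgfb1 stays at 0.36.

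Another pair of clones of different genes followed each other: Pdgfra and Tgfbr2 clone 5303 (r = 0.96 over 9 arrays, 0.92 over the invasive ones), both highest in invasive 2, lowest in invasive 3 among the invasive arrays and lowest in PIN 4 among the PIN arrays. The likeness was not particular to this pair, as 115 clones had a correlation of at least 0.9 with Pdgfra and 112 with Tgfbr2 clone 5303. The other Tgfbr2 clones did not follow Pdgfra (clone 6603 r = 0.46 and 0.10, clone 11037 r = 0.02 and -0.90), so this is a likeness of single clones. The sequences upstream of the transcript starts of these genes are shown because these clones moved together, and that of Tgfb2 because it alone ran the other way. They are the 250 bases before the start in the RefSeq promoter table (mouse build GRCm38.p6), read on the strand of the gene, and in Pdgfra and Tgfb2 another annotated transcript starts further upstream. Capitals mark matches on either strand to the core promoter motif TATAAA, the E-box motif CACGTG, the TCF/LEF core CTTTGA or the SMAD half-site CAGAC; no motif is contained in another.
Pdgfra, chr5:75152001-75152250, plus strand: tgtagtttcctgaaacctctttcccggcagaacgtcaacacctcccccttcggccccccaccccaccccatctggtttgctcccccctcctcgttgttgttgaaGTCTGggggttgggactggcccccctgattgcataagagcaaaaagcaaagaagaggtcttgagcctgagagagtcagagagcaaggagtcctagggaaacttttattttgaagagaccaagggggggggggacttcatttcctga
Tgfbr2, chr9:116175364-116175613, minus strand: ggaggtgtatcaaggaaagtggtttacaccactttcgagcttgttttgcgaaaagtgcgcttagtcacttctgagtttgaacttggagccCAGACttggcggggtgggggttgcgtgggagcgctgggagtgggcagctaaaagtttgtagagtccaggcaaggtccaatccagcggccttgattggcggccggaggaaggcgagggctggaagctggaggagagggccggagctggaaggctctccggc
Tgfb2, chr1:186705990-186706239, minus strand: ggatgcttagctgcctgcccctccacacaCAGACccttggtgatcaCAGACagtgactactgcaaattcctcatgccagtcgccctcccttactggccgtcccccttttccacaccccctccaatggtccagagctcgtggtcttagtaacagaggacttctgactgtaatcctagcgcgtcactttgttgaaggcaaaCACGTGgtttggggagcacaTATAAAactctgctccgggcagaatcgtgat
The Tgfb2 window held the core promoter motif 31 bases and an E-box 51 bases before the start, and 2 SMAD half-sites 204 and 221 bases before it. Pdgfra and Tgfbr2 each held 1 SMAD half-site, 146 and 160 bases before the start, and no core promoter motif or E-box. No TCF/LEF core was in any of the 3 windows. Of 32851 windows of the same length, 12.4% held the core promoter motif, 6.02% the E-box, 13.8% the TCF/LEF core and 42.2% the SMAD half-site. These are matches of letters and say nothing of binding.

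The genes most like each of the 8 over the arrays were taken as the 3 with the highest Pearson r over 9 arrays, from 8079 genes. Pdgfra was followed most closely by Bach1 (r = 0.99), a transcriptional repressor of heme oxygenase, and by Amotl2 and Wipf1 (both 0.97). Pdgfrb was followed by Septin8 (0.99), the insulin-like growth factor carrier Igfbp3 (0.98) and the lipid-droplet protein Plin2 (0.97), and Sfrp1 by Zswim6, the matrix proteoglycan Bgn and Oser1 (all 0.95). Tgfbr2 was nearest to the peroxidase Prdx4 (0.95), the laminin chain Lamb1 (0.94) and Mtrex (0.92). For the ligands, Tgfb2 lay nearest to Amotl1 (0.98), Tmem185a and Zfp445 (both 0.93), and Tgfb3 to the chaperones Hspb1 (0.94) and Cryab (0.88) with Mtpn (0.90). Tgfb1 lay nearest to Fgf4, R3hdm4 (both 0.97) and Furin (0.96), a protease that cleaves the TGF-beta precursor. The Tgfb1 mean contains the common profile of its clone 1093, which Furin followed at r = 0.94. Clone 3859 of Tgfb1 ran against clone 1093 (r = -0.61 over 9 arrays), and its own likeness to Furin was not tested. Tgfbr1 lay nearest to Inhba (0.92), Cck and Pkm (both 0.90). Within the 6 invasive arrays r was 0.99 for Igfbp3 with Pdgfrb, and 0.84 for Zswim6, 0.59 for Bgn and 0.61 for Oser1 with Sfrp1. These are descriptions over arrays that share a pool. Each r is among the highest of 8079 over only 9 arrays, so part of it comes from selection, and how much was not tested.

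Shares of the pathway lists that passed are to be read against the 5.64% of all genes (3.75% higher, 1.89% lower). In the PDGF pathway 1 gene passed beside the receptor gene Pdgfrb. None of 4 measured ligands or receptor-like genes passed in limma, and 0 had an unadjusted p under 0.05. Pdgfb, the ligand chain that both receptors bind, differed by 0.47 (SE 0.34, adjusted p = 0.576, limma), and Pdgfd, which acts mainly on Pdgfrb, by 0.20. Among 17 relays downstream of growth factor receptors 1 fell, the docking adaptor Gab1, a share near that of all genes. It had a lowest, median and highest log2 ratio of -0.82, -0.39 and -0.22 in invasive stroma, against 0.15, -0.02 and 0.32 in PIN 2, 3 and 4. All invasive arrays were below all PIN arrays (-0.60, SE 0.19, adjusted p = 0.148, limma), and the call was lost in 8 of 9 runs without 1 array. The median difference of the relays was -0.01.

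Genes that TGF-beta is known to induce held the largest shift of the pathway lists. Of 16 measured, 7 rose and none fell, where 3.75% of all genes rose and 1.89% fell, and the median difference was 1.22, against 0.02 over all genes. Timp1, an inhibitor of matrix metalloproteinases, had a lowest, median and highest ratio of 1.49, 2.84 and 3.62 in invasive stroma, against -1.06, -0.11 and 1.39 in PIN 2, 3 and 4 (2.61, SE 0.50, adjusted p = 0.0398, limma). The immediate-early transcription factor Junb gave 0.67, 1.48 and 2.18 in invasive stroma, against -1.23, -0.56 and 0.38 in PIN 2, 3 and 4 (1.85, SE 0.37, adjusted p = 0.0431, limma). The fibrillar collagen genes Col3a1 (1.55, SE 0.31, adjusted p = 0.0431, limma) and Col1a2 (1.55, SE 0.32, adjusted p = 0.0458, limma) rose alike, and in all 4 genes the groups did not overlap. Fn1 (2.23), Sparc (1.74) and Col5a1 (1.67), matrix genes outside the rule for named genes, made up the 7. The other 9 did not pass, and 2 of the 16 had negative differences. Among those that did not pass, also outside that rule, were the collagen gene Col1a1 (0.35, SE 0.22, adjusted p = 0.493, limma) and Tgfbi (1.52, SE 0.52, adjusted p = 0.18, limma). Collagens are also markers of fibroblasts, and Col1a1, Col1a2 and Col3a1 are in both lists. The 2 fibroblast markers that rose were Col1a2 and Col3a1, so that list gives no separate evidence. The response genes are induced by other signals as well. Without PIN 2 none of the 16 passed, when 37 of all genes did.

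Upstream of those genes 1 gene passed, and the errors of several others were wide. None of 7 genes of latency, activation and co-receptors passed in limma, and 0 had an unadjusted p under 0.05. The integrin chain Itgb5 differed by 0.88 (SE 0.45, adjusted p = 0.39, limma) and Thbs1, an activator of latent TGF-beta, by 0.67 (adjusted p = 0.427, limma). Among 14 SMADs and SMAD regulators 1 rose, again near the 5.64% of all genes called. It was Skil, a SMAD corepressor that TGF-beta itself induces. Its lowest, median and highest ratio was -0.10, 0.75 and 0.99 in invasive stroma, against -0.15, 0.16 and -0.62 in PIN 2, 3 and 4 (0.86, SE 0.27, adjusted p = 0.144, limma), and the call was lost in 8 of 9 runs without 1 array. The median of that list was 0.00. None of 24 activin and BMP ligands, receptors and antagonists passed in limma, and 1 had an unadjusted p under 0.05, with the smallest p for Fstl1 (0.92, adjusted p = 0.194, limma) and Gdf10 (0.73, adjusted p = 0.358, limma).

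In the 5 Wnt lists 2 of 59 genes passed (3.39%), where 5.64% of all genes did, so the lists were not called more often than other genes. Beside Sfrp1, 1 gene rose in a list of 6 other Wnt antagonists. Sfrp4 had ratios of 0.37, 1.96 and 2.64 at its lowest, median and highest in invasive stroma, against 0.27, 0.40 and -0.45 in PIN 2, 3 and 4, so that only invasive 3 overlapped (1.65, SE 0.48, adjusted p = 0.12, limma). That call was lost in 7 of 9 runs without 1 array. Dkk2 (1.60, adjusted p = 0.35, limma) and Dkk3 (1.28, adjusted p = 0.197, limma), outside the rule for named genes, did not pass, and the median of the 6 was 0.90. None of 16 Wnt ligands, 8 receptors and 18 relays passed in limma, with medians of 0.07, -0.19 and 0.04 and with 1, 0 and 0 genes at an unadjusted p under 0.05. Differences of the ligands and relays with the common profile had wide errors, such as 0.05 (SE 0.49) for Wnt2b. Wnt2, the ligand with the smallest p, had its groups apart but did not pass (0.67, SE 0.27, adjusted p = 0.263, limma), and Wnt8a, a ligand of the embryo, differed by -0.45. The receptors Ryk and Fzd7 differed by 0.38 and -0.45, and the relays Ctnnbip1, which keeps beta-catenin from TCF factors, and Tle1, a corepressor, by 0.55 and -0.39.

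Among 11 Wnt response genes 1 fell and none rose, where 1.89% of all genes fell, and 1 call in a list of this size is no result about the list. Axin2, a feedback inhibitor and widely used readout of canonical Wnt signaling, gave -0.54, -1.53, -0.12, -1.08, -1.13 and -0.73 in invasive 1 to 6, against 0.63, 0.42 and -0.17 in PIN 2, 3 and 4. Only invasive 3 and PIN 4 overlapped, and the ratio was 2.22-fold lower in invasive stroma (-1.15, SE 0.30, adjusted p = 0.0906, limma). The call was lost in 4 of 9 runs without 1 array. Lef1, a transcription factor of the pathway outside the rule for named genes, had all invasive ratios below the PIN ratios and did not pass (-0.63, SE 0.21, adjusted p = 0.162, limma). The median of the 11 genes was 0.31, so the list did not move as 1 with Axin2.

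**Figure D4:**
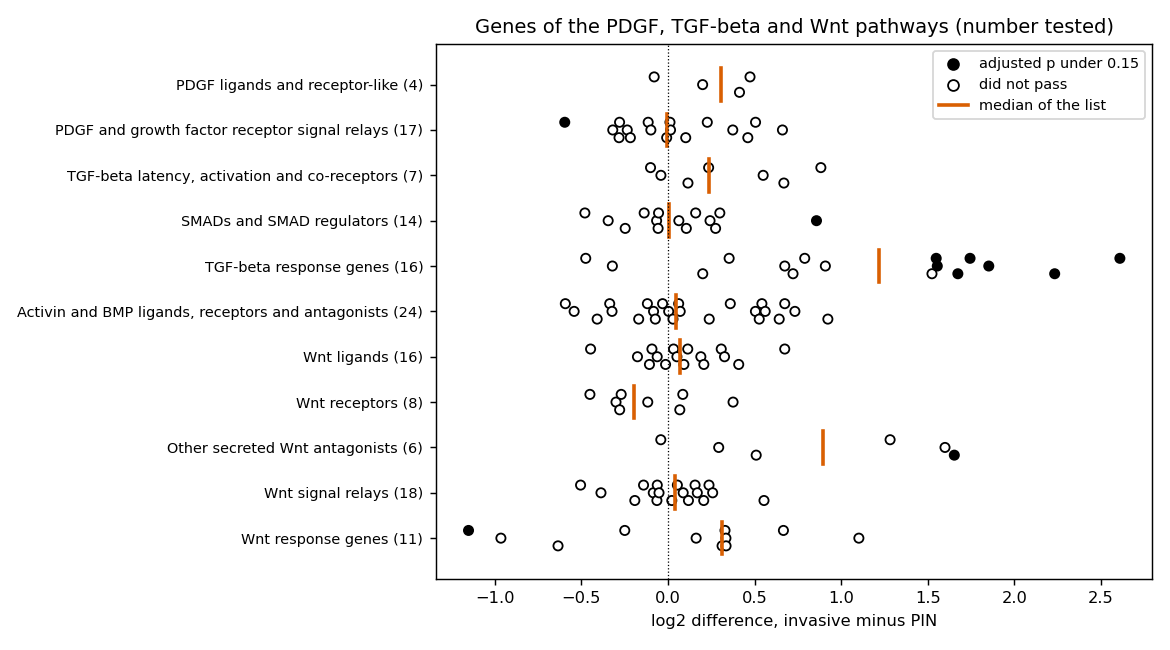
Difference in log2 ratio, invasive minus PIN (horizontal axis), of every measured gene of the PDGF, TGF-beta and Wnt lists (rows, with the number tested), with 1 point per gene and a bar at the median of the list. Filled points passed; 7 of the 16 TGF-beta response genes did, at a list median of 1.22, while the lists of Wnt ligands, receptors and relays lie around 0.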

How the data were processed

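Stroma was microdissected, its RNA amplified, and each sample labeled with Cy5 and hybridized with the Cy3-labeled pool, in 1 dye orientation; the distance of the dissected stroma from the epithelium was set differently for the stages. The authors corrected the arrays singly by lowess within print-tip groups, left the background in, and deposited log2 ratios of sample over pool. Spot intensities were not used here, so signal over background is not given, and the number of arrays limits the precision. The array of the remaining PIN sample was not analysed here. Of 17664 rows, 457 held no value, and 12563 had 1 gene symbol, 412 several and 4689 none. As a check of direction, 393 of the 396 clones on the study's own list were traced to a single row with the same sign; the study chose them on these arrays, so they are no independent evidence.

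A clone needed values on 4 invasive and 2 PIN arrays, which left 17207. The difference of invasive from PIN stroma was estimated with limma 3.58.1 (R 4.3.3, linear model with empirical Bayes moderation, two-sided) for each clone, and for the mean of the clones of each of 8106 genes. Differences between 2 genes were tested by exact permutation in Python 3.11.15. The fit was tested on simulated data. The genes, lists and tests were chosen with earlier results of these data known. The text names each clone of the 8 genes, of each pathway list up to 4 passing genes of smallest p (2 where none passed), and for each gene the 3 most alike. Other settings tried were t-tests with unequal and with equal variances, array weights, invasive arrays against 0, a replicate block, 3 scalings, the filter on missing values, other ways to combine clones, an adjusted p under 0.05 and leaving out each array. The study names a standard t-test without stating whether it assumed equal variances.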

Additional observations from a re-analysis of the deposited data

Results flagged for a closer look

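Of 43 sets of array values examined, 1 held an array far from the others of its group, where chance flags about 1 in 20. Tgfbr1 clone 1021 had a log2 ratio of 1.06 in invasive 5, while the other 5 invasive arrays lay between -0.48 and -0.22, so the gap took 0.83 of the whole range. Tgfbr1 clone 3038 was also highest in invasive 5, at 0.996, and clones 15453 and 15997 were not.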

How the results depend on the processing

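Sfrp1 and Pdgfrb stayed higher under every alternative run, but their calls did not always hold. The count of passing genes, 2 of 8 as reported, was 1 with the unequal-variance test, 1 with the equal-variance test, 5 with array weights, 7 for invasive arrays against 0, 1 with quantile normalization and 1 at an adjusted p under 0.05. The count of passing clones, 3 of 17, was 0, 1, 8, 13, 1 and 0 in that order. Over all genes, 457 became 207 with the unequal-variance test, 54 with the equal-variance test, 1705 with array weights, 2595 against 0 and 76 at 0.05. Leaving out each array in turn gave 1 to 4 genes, 0 to 6 clones and 37 to 896 of all genes, with the highest counts without invasive 3 and the lowest of all genes without PIN 2. In the same runs the TGF-beta response list had 0 to 9 calls, the list of other Wnt antagonists 0 to 2 and the Wnt response genes 0 to 4. These list runs were chosen after seeing the data.

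With the replicate number as a block, 0 clones, 0 of the 8 genes and 90 of all genes passed; Sfrp1 differed by 1.21 (adjusted p = 0.206, limma) and Pdgfrb by 0.95 (adjusted p = 0.258, limma). Deviations of equally numbered invasive and PIN arrays correlated at -0.09, -0.10 and -0.02 for numbers 2, 3 and 4, so the samples share only a number, and the labels name no pairing.

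Tgfb2 minus Tgfb1 was -0.84 with scaled arrays (adjusted p = 0.238, exact permutation test) and -0.84 with quantile normalization (0.397), and did not pass. Leaving out each array gave -1.57 to -0.87, and 1.14 to 1.70 for Tgfb3 minus Tgfb2. Each of these pairs lost its call in 7 of those 9 runs. Fewer splits make the smallest possible p larger, so a call could be lost with the groups still apart, as for Tgfb3 minus Tgfb2. Tgfbr2 minus Tgfbr1 was 0.61 and passed with the median of the clones (adjusted p = 0.0595, exact permutation test), and ranged from 0.37 to 0.67 without 1 array. Pdgfrb minus Pdgfra ranged from -0.00605 to 0.51 and Tgfb3 minus Tgfb1 from -0.0126 to 0.63.

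Differences near 0 changed sign. Tgfb1 was -0.0103 with array weights, -0.18 scaled, -0.38 with quantile normalization and -0.0419 for the clone of highest variance, and Tgfbr1 was -0.0751 with quantile normalization. With array weights Tgfbr1 clone 3038 was -0.14, clone 15453 -0.0324 and Tgfbr2 clone 11037 -0.052. Against 0, Tgfb1 clone 1093 was 1.56 and Tgfbr1 clone 1021 -0.12. With the block, Tgfb1 clone 1093 was 0.26, Tgfbr1 clone 1021 -0.26 and clone 3038 -0.36. Scaled arrays gave -0.00224 for Tgfbr1 clone 3038, -0.14 for clone 15453 and -0.06999 for Tgfbr2 clone 11037, and quantile normalization -0.0314, -0.49 and -0.11. Without 1 array the ranges were -0.0258 to 0.21 for Tgfb1, -0.33 to 0.24 for its clone 1093, -0.0212 to 0.69 for Tgfb3 and its clone 3860, and for Tgfbr1 -0.17 to 0.18 in clone 1021, -0.16 to 0.29 in clone 3038 and -0.23 to 0.50 in clone 15453; Tgfbr2 clone 11037 ranged from -0.19 to 0.63. The cause of these changes was not tested. With 3 PIN arrays, each measured against a pool that contained it, many modest differences could be missed.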
